A study of Mus musculus with 8 samples.

Results

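The genes of collagen chains, the polypeptides that wind around each other into the main structural proteins of the extracellular matrix, were examined in white adipose tissue. Every gene whose symbol had the form of a collagen chain (Col, a type number, a and a chain number) was a member, which gave 44 of the 18691 genes in the files. The tissue was epididymal white fat, a visceral depot, from C57BL/6J mice at 16 weeks of age, measured by sequencing of polyadenylated RNA. There were 4 libraries labelled Mrp4 KO (Mrp4-/-), with the replicate numbers 1, 2, 4 and 5, and 4 labelled wild type (WT), with the numbers 1, 2, 3 and 4. Mrp4 is an efflux transporter encoded by Abcc4; the sources used here do not describe its altered allele or say whether each library came from a separate mouse, and the spread behind each p-value may therefore be technical. Levels are the authors' FPKM values, which correct for transcript length and depth. A chain was called higher or lower when its p from the quasi-likelihood test of edgeR, adjusted by Benjamini-Hochberg over all 14257 tested genes, was under 0.05.

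Collagens are grouped by the structures they build. Fibrillar chains form the tension-bearing fibres of connective tissue, type IV chains form the sheet-like network of basement membranes, and type VI chains form beaded microfilaments at the cell surface. Further classes sit on fibrils and link them to other matrix (the FACIT collagens), span the plasma membrane, or build short networks and anchoring fibrils. In fat, each adipocyte is enclosed by a basement membrane rich in types IV and VI, fibrillar collagens lie in the interstitial space, and type VI collagen is known from mouse work as an abundant collagen of this tissue that limits adipocyte expansion.

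Libraries held 14064681 to 14700114 expected counts. Abcc4 was at 3.54, 3.68, 3.89 and 3.31 FPKM in the libraries labelled Mrp4 KO, against 3.59, 3.33, 3.81 and 3.33 FPKM in WT, so the transcript of the targeted gene was not lower and every direction below rests on the labels (log2 fold change -0.05 ± 0.08 SE; exact two-sided permutation p = 0.571 on log2(FPKM + 1), where 4 against 4 libraries allow no p below 0.0286). Over all genes, 2606 were called, 1458 higher and 1148 lower. Of the genes called, 55.95% were higher, and 74.1% with library size as the only scaling. The adipocyte gene Adipoq, which encodes adiponectin, was at 2279 to 2598 FPKM in the libraries labelled Mrp4 KO and at 2368 to 2782 FPKM in WT. Liver and plasma protein transcripts were higher in the libraries labelled Mrp4 KO, with all 20 of a list of 20 called and summed levels of 989.6 to 1898 FPKM, against 68.2 to 172 FPKM in WT. When that list was left out of the scaling, 14 collagen chains were called higher and 2 lower, the counts given below. This moved the median log2 fold change over all genes only from -0.003 to 0.0, so these counts could hardly change. The source of the liver transcripts was not tested.

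Collagen transcripts as a whole were more abundant in the libraries labelled Mrp4 KO. They took 1.57%, 1.42%, 1.39% and 1.55% of the expected counts in the libraries labelled Mrp4 KO, against 0.748%, 1.04%, 0.937% and 0.905% in WT. Summed over the 44 chains, the level was 2816, 2527, 2493 and 2772 FPKM in the libraries labelled Mrp4 KO, against 1315, 1854, 1648 and 1580 FPKM in WT. The ranges did not overlap, and the mean sum was 1.66 times that of WT. Of the 44 chains 31 had enough counts to be tested. Among them 14 were called higher (45.2%) and 2 lower (6.45%), where 10.2% of all tested genes were called higher and 8.05% lower. The FPKM of 15 of the 31 lay above the WT range in every library labelled Mrp4 KO and that of 1 lay below it, where 16.4% and 7.08% of all tested genes did so. The median log2 fold change of the 31 was 0.53, against 0.00 over all genes tested. The sums and counts describe the chains, and no test was made of the family as a whole.

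**Figure D1:**
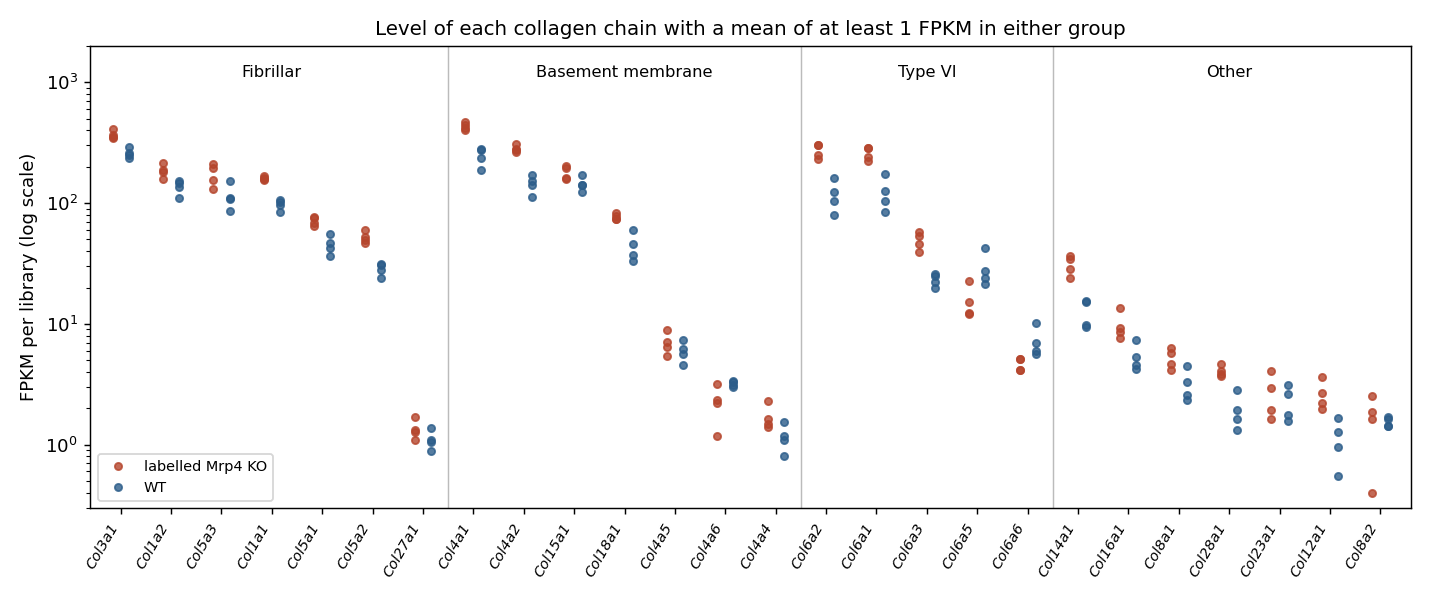
FPKM of each collagen chain (log axis) whose mean reached 1 FPKM in either group, 1 point per library, for libraries labelled Mrp4 KO (left of each pair) and WT (right), ordered by mean level within each class. Col4a1, Col3a1, Col6a1, Col6a2 and Col4a2 reach over 200 FPKM in every library labelled Mrp4 KO, and Col6a5 and Col6a6 are the chains with lower means in that group that were called.

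The 4 classes were fibrillar (11 chains, 8 tested), basement membrane (8 chains, all tested: type IV, and types XV and XVIII of the basement membrane zone), type VI (6 chains, all tested) and all others (19 chains, 9 tested). Summed fibrillar chains were at 1091, 1017, 942 and 990.7 FPKM in the libraries labelled Mrp4 KO, against 594, 729.7, 683 and 724 FPKM in WT. Basement membrane chains summed to 1005, 935, 928 and 1062 FPKM in the libraries labelled Mrp4 KO, against 485, 693, 626 and 550.0 FPKM in WT. Type VI chains summed to 664, 521, 553 and 665 FPKM in the libraries labelled Mrp4 KO, against 212, 394, 307 and 282 FPKM in WT. In each of these classes the libraries labelled Mrp4 KO lay above all WT libraries. The mean sums were 1.48, 1.67 and 2.01 times those of WT in the same order, and 1.99 times for the other chains. As a share of all collagen FPKM, type VI chains made up 20.6% to 24.0% in the libraries labelled Mrp4 KO and 16.1% to 21.2% in WT, and fibrillar chains 35.7% to 40.2% in the libraries labelled Mrp4 KO and 39.4% to 45.8% in WT. Basement membrane chains made up 35.7% to 38.3% in the libraries labelled Mrp4 KO and 34.8% to 38.0% in WT. These shares overlapped between the groups in every class, and no test was made of them.

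**Figure D2:**
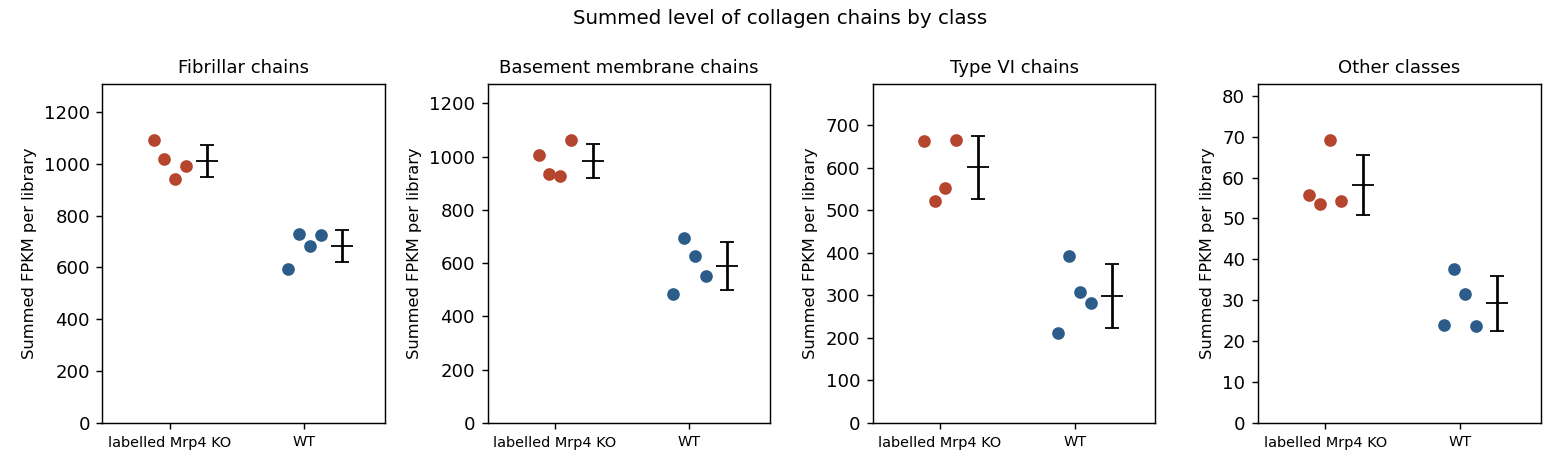
Summed FPKM of the chains of each class, 1 point per library, with the mean and SD of each group (n = 4) beside the points. In all 4 classes the lowest library labelled Mrp4 KO lies above the highest WT library, as for type VI chains at 521 against 394 FPKM.

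Among the fibrillar chains, the chains of types I, III and V make up the mixed fibrils of connective tissue, and 4 of the 8 tested were called higher and 0 lower, against 10.2% of all tested genes called higher and 8.05% called lower. All 8 log2 fold changes were above 0, with a median of 0.48. Col1a1, the α1 chain of type I collagen, was at 155, 166, 159 and 159.9 FPKM in the libraries labelled Mrp4 KO, against 83.8, 102, 96.9 and 107 FPKM in WT. It rose in a narrow band, with no overlap between the groups and a log2 fold change of 0.65 ± 0.09 (SE; adjusted p = 0.00231). Col1a2, the α2 chain of the same molecule, was at 181, 215, 188 and 158 FPKM in the libraries labelled Mrp4 KO, against 111, 154, 137 and 147 FPKM in WT. Its ranges did not overlap either, but it did not pass the test (0.37 ± 0.12, adjusted p = 0.0642; 95% interval of the fold 1.07 to 1.56), and it was called with DESeq2, with scaling by library size and with both FPKM fits. The ratio of Col1a1 to Col1a2 FPKM was 0.854, 0.775, 0.848 and 1.01 in the libraries labelled Mrp4 KO, against 0.753, 0.662, 0.708 and 0.727 in WT, so the α1 chain was the higher of both per length in 1 library labelled Mrp4 KO and in 0 WT libraries.

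Col3a1, whose chain forms type III collagen of distensible tissue, was the most abundant fibrillar chain, at 407, 368, 343 and 349.7 FPKM in the libraries labelled Mrp4 KO, against 250.3, 234, 260.1 and 291 FPKM in WT. It rose by 0.43 ± 0.11 on the log2 scale (adjusted p = 0.0254), the smallest change among the chains called, and the call was lost without replicate 1 or 2 labelled Mrp4 KO or without WT replicate 1 or 3 (0.38 to 0.50 over all libraries left out). Type V chains lie within type I fibrils and are known to control their diameter. Col5a2 was at 60.04, 46.4, 49.9 and 52.8 FPKM in the libraries labelled Mrp4 KO, against 24.0, 31.1, 30.8 and 28.02 FPKM in WT, and rose by 0.81 ± 0.10 on the log2 scale (adjusted p = 0.00144). Col5a1 was at 76.1, 65.2, 68.7 and 75.7 FPKM in the libraries labelled Mrp4 KO, against 36.6, 55.4, 46.3 and 42.2 FPKM in WT, and rose by 0.60 ± 0.12 (adjusted p = 0.0125). The groups did not overlap for either chain. Col5a3, the α3 chain of type V, was at 209, 155, 132 and 194 FPKM in the libraries labelled Mrp4 KO, against 86.8, 152, 111 and 108 FPKM in WT. Its groups overlapped through WT replicate 2 and replicate 4 labelled Mrp4 KO, and it did not pass (0.53 ± 0.19, adjusted p = 0.0768). Per length it was higher than Col5a1 and Col5a2 in all 8 libraries. Col3a1 and Col5a2 are neighbours on chromosome 1 in RefSeq, with 0 coding genes between them. Col27a1 and Col11a2 had means of 1.35 and 0.278 FPKM in the libraries labelled Mrp4 KO and of 1.10 and 0.205 FPKM in WT and did not pass. Col2a1, Col11a1 and Col24a1 had 8 to 25 expected counts over all 8 libraries and were not tested.

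**Figure D3:**
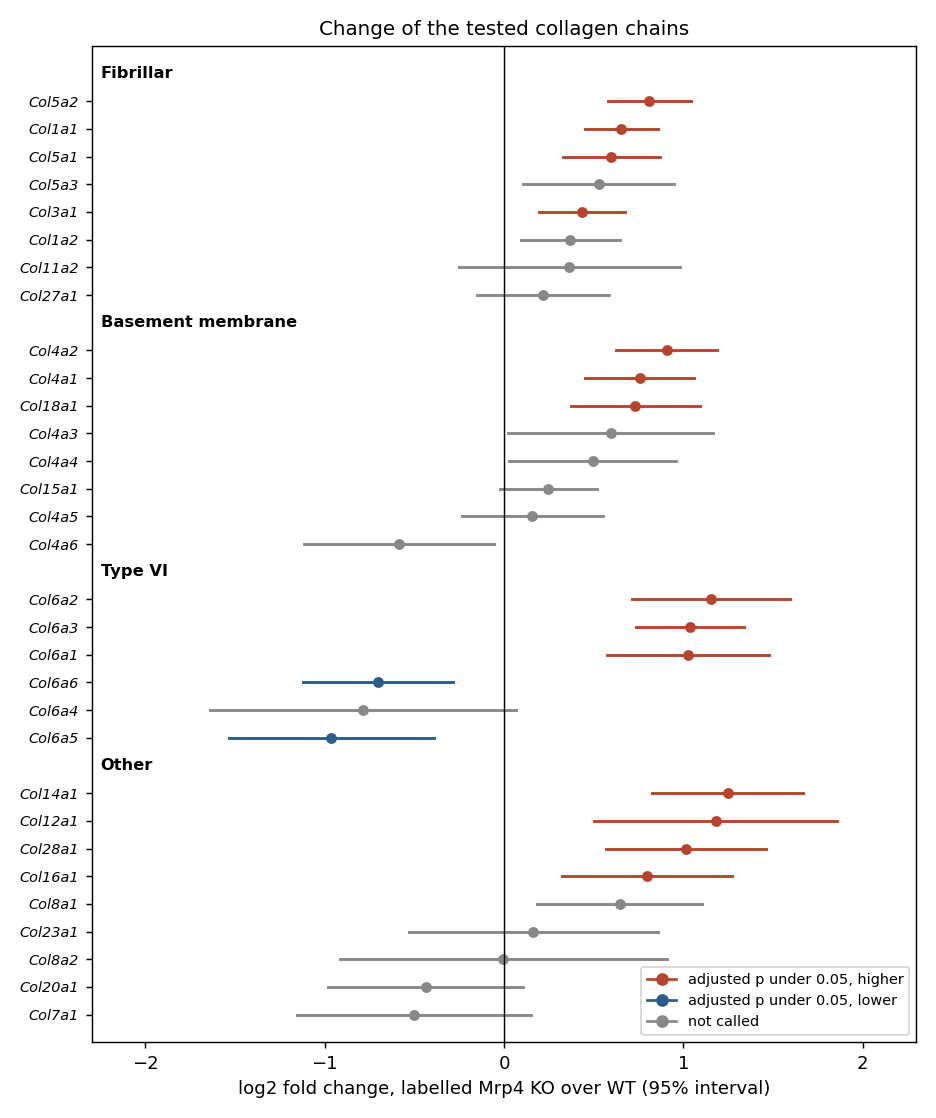
Log2 fold change of the 31 tested chains, libraries labelled Mrp4 KO over WT, with the 95% interval from edgeR (x axis), grouped by class and ordered by value (y axis). The 14 chains called higher run from 0.43 for Col3a1 to 1.25 for Col14a1, and the 2 called lower, Col6a5 and Col6a6, lie at -0.96 and -0.70.

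Among basement membrane chains, 3 of 8 were called higher and 0 lower, against 10.2% of all tested genes called higher and 8.05% called lower, and the type IV chains among these 3 were the major chains α1 and α2, which form the network found in nearly all basement membranes. Col4a1 had the highest mean of all 44 chains in the libraries labelled Mrp4 KO, whereas Col3a1 had the highest in WT (432 and 367 FPKM for Col4a1 and Col3a1 in the libraries labelled Mrp4 KO, and 245 and 259 FPKM in WT). Col4a1 was at 439.9, 406, 418 and 465 FPKM in the libraries labelled Mrp4 KO, against 187, 280.1, 277 and 236 FPKM in WT. Col4a2 was at 282, 275, 265 and 309.5 FPKM in the libraries labelled Mrp4 KO, against 113, 171, 152 and 142 FPKM in WT. Neither gene had overlapping groups, and the log2 fold changes were 0.76 ± 0.14 for Col4a1 (adjusted p = 0.00787) and 0.91 ± 0.13 for Col4a2 (adjusted p = 0.00235). The ratio of Col4a1 to Col4a2 FPKM was 1.56, 1.47, 1.58 and 1.502 in the libraries labelled Mrp4 KO, against 1.65, 1.64, 1.82 and 1.66 in WT, lower in every library labelled Mrp4 KO than in any WT library. Among further chain ratios examined, Col5a2 to Col5a1 and Col4a6 to Col4a5 also kept the groups apart. Those of Col4a3 to Col4a4, Col3a1 to Col1a1, Col5a2 to Col3a1 and Col6a3 to Col6a1 overlapped. How often the ratio of other gene pairs keeps the groups apart was not tested. Both genes lie head to head on chromosome 8, where their RefSeq promoter windows (GRCm38.p6, 250 bases before to 50 after a start) share 78 bases.

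The minor type IV chains did not follow the major ones past the test. The α3 and α4 chains, best known from kidney and lung basement membranes, were low: Col4a3 averaged 0.902 ± 0.343 FPKM in the libraries labelled Mrp4 KO and 0.570 ± 0.1003 FPKM in WT, and Col4a4 averaged 1.71 ± 0.419 FPKM in the libraries labelled Mrp4 KO and 1.16 ± 0.301 FPKM in WT (SD, n = 4 each; adjusted p = 0.128 and 0.121). The log2 fold changes were 0.60 ± 0.255 for Col4a3 and 0.495 ± 0.21 for Col4a4. Col4a4 was called higher without WT replicate 2 (0.65). Col4a5, the α5 chain, was at 5.38, 8.86, 7.08 and 6.41 FPKM in the libraries labelled Mrp4 KO, against 4.54, 6.21, 5.64 and 7.35 FPKM in WT, with overlapping groups (0.16 ± 0.18, adjusted p = 0.554). Col4a6, the α6 chain that assembles with α5 and is the neighbour of Col4a5 on the X chromosome, was at 1.17, 3.15, 2.36 and 2.23 FPKM in the libraries labelled Mrp4 KO, against 3.28, 3.0, 3.14 and 3.35 FPKM in WT. It was the only type IV chain with a log2 fold change below 0, did not pass (-0.59 ± 0.24, adjusted p = 0.111) and overlapped through replicate 2 labelled Mrp4 KO. Replicate 1 labelled Mrp4 KO, the lowest for Col4a6, also had the lowest summed level of 8 mesothelial markers, 63.2 FPKM against 111 to 169.5 FPKM in the other libraries labelled Mrp4 KO and 167 to 266 FPKM in WT. In the same library 8 mural cell markers summed to 275 FPKM, against 316 to 347 FPKM in the others labelled Mrp4 KO. WT libraries had 193 to 295 FPKM. The part of either cell type in the Col4a6 values was not tested.

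Types XV and XVIII are the multiplexins, proteoglycan collagens of the basement membrane zone, and Col18a1 is the source of the fragment endostatin. Col18a1 was at 73.4, 78.1, 73.7 and 82.0 FPKM in the libraries labelled Mrp4 KO, against 33.0, 59.97, 46.2 and 37.3 FPKM in WT. It rose without overlap (0.73 ± 0.16, adjusted p = 0.0169), and the call was lost without WT replicate 4 (0.62 to 0.90 over all libraries left out). Hepatocytes are known to express Col18a1, and the liver transcripts given above were higher in the same group. In the same order of libraries the liver sums were 989.6, 1815, 1898 and 1333 FPKM in those labelled Mrp4 KO. They were 172, 68.2, 100.3 and 77.6 FPKM in WT. The part of liver RNA in the Col18a1 values was not tested. Col15a1 was at 201, 160.5, 159.5 and 194 FPKM in the libraries labelled Mrp4 KO, against 143, 170.4, 142 and 122 FPKM in WT. Its groups overlapped, it did not pass (0.25 ± 0.12, adjusted p = 0.175; 95% interval of the fold 0.983 to 1.43), and its share of all collagen FPKM was 6.35% to 7.15% in the libraries labelled Mrp4 KO and 7.75% to 10.8% in WT.

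Type VI collagen held the chains called in opposite directions. Its filaments are built from α1, α2 and α3 chains, and the related chains α4, α5 and α6 can take the place of α3. Of the 6 chains 3 were called higher, 2 lower and 1 did not pass, where 10.2% and 8.05% of all tested genes were called higher and lower. Col6a1 (α1) was at 287, 222, 240.3 and 286 FPKM in the libraries labelled Mrp4 KO, against 83.8, 174, 127 and 103 FPKM in WT. Col6a2 (α2) was at 303, 232, 250.3 and 305 FPKM in the libraries labelled Mrp4 KO, against 79.3, 162, 125 and 104 FPKM in WT. Both rose without overlap, by 1.03 ± 0.20 (adjusted p = 0.0120) and 1.15 ± 0.20 (adjusted p = 0.00656) on the log2 scale. Within WT both were lowest in replicate 1 and highest in replicate 2, and among the libraries labelled Mrp4 KO both were lowest in replicate 2. The ratio of Col6a1 to Col6a2 FPKM was 0.939 to 0.960 in the libraries labelled Mrp4 KO and 0.996 to 1.07 in WT. That of Col6a3 to Col6a1 overlapped, at 0.176 to 0.203 in the libraries labelled Mrp4 KO and 0.143 to 0.238 in WT.

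Col6a3 (α3), the longest of the main chains, whose C-terminal cleavage product is endotrophin, was at 53.8, 39.2, 45.8 and 58.0 FPKM in the libraries labelled Mrp4 KO, against 19.9, 24.9, 25.9 and 22.2 FPKM in WT. It rose with no overlap between the groups (1.04 ± 0.13, adjusted p = 0.00158). Col6a5 (α5) was at 15.2, 22.6, 12.2 and 12.04 FPKM in the libraries labelled Mrp4 KO, against 21.4, 27.6, 23.8 and 42.2 FPKM in WT. It fell by 0.96 ± 0.26 on the log2 scale (adjusted p = 0.0324), although replicate 2 labelled Mrp4 KO lay above WT replicate 1. Col6a6 (α6) was at 5.13, 5.17, 4.15 and 4.18 FPKM in the libraries labelled Mrp4 KO, against 6.98, 6.00, 5.62 and 10.2 FPKM in WT, and fell by 0.70 ± 0.19 without overlap (adjusted p = 0.0331). The call of Col6a5 was lost without replicate 1, 4 or 5 labelled Mrp4 KO, without WT replicate 3 or 4, and without the filter on low counts (-1.19 to -0.71 over the libraries left out), and that of Col6a6 without any 1 library labelled Mrp4 KO, without WT replicate 1, and in both FPKM fits (-0.81 to -0.48 over the libraries left out). WT replicate 4 was the highest library for both. Their expected counts were not all whole numbers, with lowest counts of 1570.9 for Col6a5 and 416.1 for Col6a6. The summed counts of every other chain were whole numbers. Whether Col6a5 and Col6a6 shared reads was not tested, so their values may not be fully separate. Col6a4 (α4) was at 0.07 to 0.10 FPKM in the libraries labelled Mrp4 KO and at 0.08 to 0.25 FPKM in WT and did not pass (adjusted p = 0.170).

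The makeup of the α3-like chains differed between the groups. Of the summed FPKM of Col6a3, Col6a5 and Col6a6, Col6a3 made up 72.6%, 58.5%, 73.7% and 78.2% in the libraries labelled Mrp4 KO, against 41.2%, 42.6%, 46.8% and 29.8% in WT. Col6a3 was the larger share in every library labelled Mrp4 KO, and in WT it was below Col6a5 in 3 of 4 libraries, the exception being replicate 3. The ratio of Col6a5 to Col6a3 was 0.283, 0.576, 0.267 and 0.207 in the libraries labelled Mrp4 KO, against 1.08, 1.11, 0.918 and 1.90 in WT. The sum of these 3 chains was 62.2 to 74.3 FPKM in the libraries labelled Mrp4 KO and 48.4 to 74.6 FPKM in WT and overlapped. FPKM sums count transcripts and not assembled protein.

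**Figure D4:**
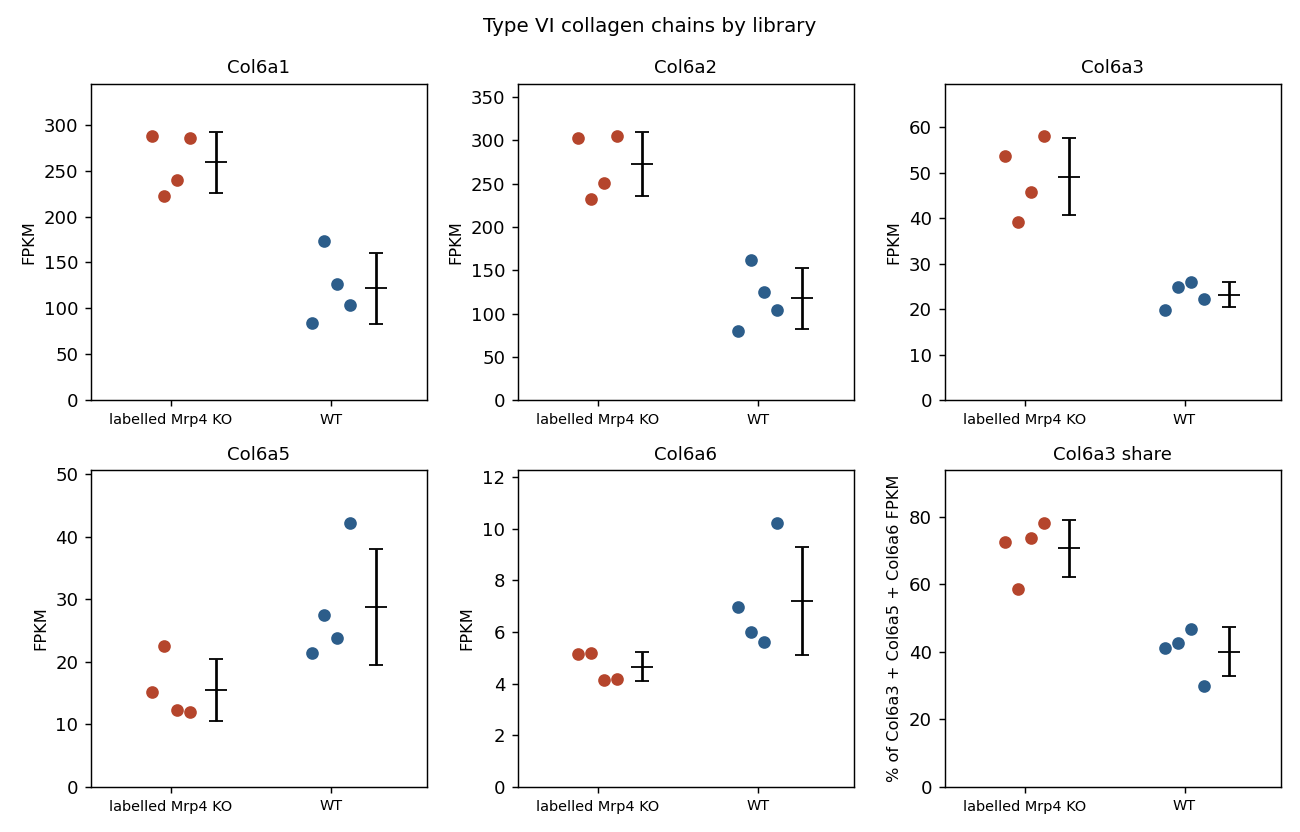
FPKM per library of the type VI chains above 1 FPKM and, in the last panel, the share of Col6a3 in the summed FPKM of Col6a3, Col6a5 and Col6a6 (%), with mean and SD (n = 4) beside the points. Col6a1, Col6a2 and Col6a3 lie higher in libraries labelled Mrp4 KO, Col6a6 lies lower, Col6a5 has a lower mean with overlapping points, and the Col6a3 share is 58.5% or more in libraries labelled Mrp4 KO and 46.8% or less in WT.

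The type VI genes that changed together also lie together. Col6a1 and Col6a2, both higher, are neighbours on chromosome 10, with Col18a1 beyond 2 further coding genes, and Col6a5 and Col6a6, both lower, are neighbours on chromosome 9 beside Col6a4. Col6a3 lies apart from them on chromosome 1. The 250 bases before the outermost RefSeq start of each gene (GRCm38.p6) are shown because these 5 genes carry the opposite changes; capitals mark matches, on either strand, to the GC box GGGCGG, the CCAAT box, the TATA box motif TATAAA or the AP-1 motif TGANTCA, with no overlap between matches here. All 5 genes are on the minus strand and are printed 5′ to 3′ on it, from chr10:76726045-76726294 (Col6a1), chr10:76623631-76623880 (Col6a2), chr1:90843972-90844221 (Col6a3), chr9:105960644-105960893 (Col6a5) and chr9:105828086-105828335 (Col6a6).
Col6a1: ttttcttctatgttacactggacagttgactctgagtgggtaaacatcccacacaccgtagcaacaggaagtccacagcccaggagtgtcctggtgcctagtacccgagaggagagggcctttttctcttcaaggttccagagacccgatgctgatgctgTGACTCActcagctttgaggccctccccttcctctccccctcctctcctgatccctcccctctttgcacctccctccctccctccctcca
Col6a2: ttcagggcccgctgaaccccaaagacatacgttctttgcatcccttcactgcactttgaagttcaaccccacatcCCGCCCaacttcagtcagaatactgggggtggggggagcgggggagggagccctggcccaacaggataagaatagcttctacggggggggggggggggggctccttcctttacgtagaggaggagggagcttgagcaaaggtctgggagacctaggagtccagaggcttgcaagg
Col6a3: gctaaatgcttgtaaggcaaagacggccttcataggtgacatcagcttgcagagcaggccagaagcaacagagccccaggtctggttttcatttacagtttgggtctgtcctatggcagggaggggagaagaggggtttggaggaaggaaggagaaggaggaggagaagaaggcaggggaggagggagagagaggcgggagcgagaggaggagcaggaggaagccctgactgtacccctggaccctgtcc
Col6a5: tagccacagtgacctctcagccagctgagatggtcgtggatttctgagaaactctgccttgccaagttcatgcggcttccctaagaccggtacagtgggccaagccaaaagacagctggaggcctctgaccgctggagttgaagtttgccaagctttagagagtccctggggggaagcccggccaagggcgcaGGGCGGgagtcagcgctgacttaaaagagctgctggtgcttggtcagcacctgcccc
Col6a6: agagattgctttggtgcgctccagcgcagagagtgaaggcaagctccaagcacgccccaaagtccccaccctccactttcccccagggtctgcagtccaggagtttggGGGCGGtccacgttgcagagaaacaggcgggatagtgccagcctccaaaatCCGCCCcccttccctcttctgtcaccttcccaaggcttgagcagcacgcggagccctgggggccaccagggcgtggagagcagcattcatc

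The window of Col6a1 held 1 AP-1 motif, that of Col6a2 held 1 GC box, and that of Col6a3 held 0 of the 4 motifs. Col6a5 had 1 GC box and Col6a6 had 2. Over all 27025 RefSeq windows of this length, 33.0% held the GC box, 34.5% CCAAT, 13.0% TATAAA and 6.85% the AP-1 motif. Among collagen chains with a window, 5 of the 10 called higher, both called lower and 11 of the 14 not called held a GC box. None of the 5 type VI windows held TATAAA or CCAAT. A match describes these letters and is no evidence that a factor binds there, and the GC content of the windows was 56.0%, 59.2% and 57.2% for Col6a1, Col6a2 and Col6a3, which rose, and 58.8% and 62.4% for Col6a5 and Col6a6, which fell, against a median of 52.0% over all windows.

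Of the remaining 19 chains 9 were tested, and 4 were called higher and 0 lower, against 10.2% of all tested genes called higher and 8.05% called lower. Of the 4, 3 were FACIT collagens, which sit on the surface of fibrils. Col14a1, a FACIT chain of the fibril surface, was at 34.1, 24.1, 36.2 and 28.7 FPKM in the libraries labelled Mrp4 KO, against 9.37, 15.1, 15.4 and 9.79 FPKM in WT. It had the highest log2 fold change of the 31 chains, 1.25 ± 0.19 (adjusted p = 0.00377), without overlap. Col12a1, a FACIT chain of tissues under mechanical load, was at 2.70, 1.96, 3.64 and 2.20 FPKM in the libraries labelled Mrp4 KO, against 1.28, 1.65, 0.95 and 0.55 FPKM in WT. It rose by 1.18 ± 0.30 (adjusted p = 0.0292), a call lost without replicate 1, 4 or 5 labelled Mrp4 KO, without WT replicate 1, 3 or 4 and without the filter on low counts (0.96 to 1.42 over the libraries left out). Col16a1, another FACIT chain, was at 7.64, 9.19, 13.6 and 8.56 FPKM in the libraries labelled Mrp4 KO, against 4.54, 7.39, 5.30 and 4.23 FPKM in WT. It rose by 0.80 ± 0.21 (adjusted p = 0.0323), a call lost without replicate 2, 4 or 5 labelled Mrp4 KO or WT replicate 1, 3 or 4 (0.60 to 0.98 over the libraries left out), and its groups stood apart by little, at 7.64 FPKM in the lowest library labelled Mrp4 KO and 7.39 FPKM in the highest WT library.

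Col28a1, which encodes a von Willebrand factor A domain collagen best known from peripheral nerve, was at 3.67, 3.84, 4.68 and 4.07 FPKM in the libraries labelled Mrp4 KO, against 1.33, 2.84, 1.93 and 1.62 FPKM in WT. It rose without overlap (1.01 ± 0.20, adjusted p = 0.0120). The short-chain type VIII collagens form hexagonal networks, and neither chain passed with all libraries in edgeR's test. Col8a1 was at 4.13, 6.31, 5.69 and 4.64 FPKM in the libraries labelled Mrp4 KO, against 2.56, 4.50, 3.32 and 2.33 FPKM in WT (0.65 ± 0.21, adjusted p = 0.0562), with WT replicate 2 inside the range of the libraries labelled Mrp4 KO. It was called higher with DESeq2, limma-voom, scaling by library size and both FPKM fits, and without WT replicate 2 (0.84). Col8a2 was at 0.40, 2.54, 1.86 and 1.62 FPKM in the libraries labelled Mrp4 KO, against 1.70, 1.64, 1.42 and 1.42 FPKM in WT. Its log2 fold change was -0.01, or 0.32 without replicate 1 labelled Mrp4 KO. That library was also lowest for Col4a6 and the mesothelial markers. Among libraries labelled Mrp4 KO it was lowest for the mural markers as well. The part of these cells in the Col8a2 values was not tested. Col23a1, a transmembrane collagen, averaged 2.65 ± 1.11 FPKM in the libraries labelled Mrp4 KO and 2.26 ± 0.720 FPKM in WT (SD, n = 4 each; adjusted p = 0.739). Col20a1 and Col7a1 were below 1.1 FPKM in every library and did not pass. The other 10, Col9a1, Col9a2, Col9a3, Col10a1, Col13a1, Col17a1, Col19a1, Col22a1, Col25a1 and Col26a1, had 3 to 62 expected counts over the 8 libraries together and at most 0.36 FPKM in any, and were not tested.

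Among the WT libraries, replicates 1 and 2 often held the ends of the range. Over the 31 tested chains, WT replicate 1 was the lowest WT library for 18 and WT replicate 2 the highest for 18. Without WT replicate 2 the number of chains called higher was 18, and over the other libraries left out in turn it was 11 or 12; 10 of the 16 calls held with each library left out in turn. These were Col1a1, Col5a1, Col5a2, Col4a1, Col4a2, Col6a1, Col6a2, Col6a3, Col14a1 and Col28a1.

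Genes that modify, process, bind and degrade collagen were counted in 4 lists, beside the 10.2% of all tested genes called higher and 8.05% called lower. Of 22 tested genes of collagen modification and folding, 5 were called higher, 1 lower and 16 did not pass, with a median log2 fold change of 0.06. Sparc, a collagen-binding matricellular protein, averaged 3234 ± 382 FPKM in the libraries labelled Mrp4 KO and 1331 ± 431 FPKM in WT (1.22 ± 0.21, adjusted p = 0.00687). Sec23a, part of the COPII coat that carries procollagen out of the endoplasmic reticulum, rose by 0.31 ± 0.06 and Glt25d1, which adds galactose to hydroxylysine of collagen, by 0.41 ± 0.09. Leprel4, a partner of a lysyl hydroxylase, fell by 0.62 ± 0.16, a call lost without replicate 5 labelled Mrp4 KO or WT replicate 1, 3 or 4.

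Of 15 tested genes of propeptide processing and crosslinking, 6 were called higher and 0 lower, with a median of 0.16. Pcolce2, which enhances removal of the procollagen C-propeptide, averaged 35.1 ± 7.59 FPKM in the libraries labelled Mrp4 KO and 17.6 ± 2.94 FPKM in WT (0.94 ± 0.16, adjusted p = 0.00741). Bmp1, the C-proteinase, and the lysyl oxidase genes Loxl2 and Lox, whose products crosslink collagen, rose by 0.33, 0.35 and 0.65 on the log2 scale, and each of these calls was lost without some libraries: Bmp1 without replicate 1 or 4 of either group, Loxl2 without replicate 1, 2 or 4 labelled Mrp4 KO or WT replicate 4, and Lox without any 1 library but WT replicate 2, and without the filter on low counts. Of 13 tested collagen receptors, 5 were called higher and 0 lower, with a median of 0.46. Mrc2, an endocytic receptor for collagen fragments, averaged 16.4 ± 6.20 FPKM in the libraries labelled Mrp4 KO and 5.70 ± 1.36 FPKM in WT (1.46 ± 0.28, adjusted p = 0.0105), and Itgb1, the β1 integrin shared by the collagen-binding integrins, 147 ± 1.48 FPKM in the libraries labelled Mrp4 KO and 103 ± 15.0 FPKM in WT (0.46 ± 0.10, adjusted p = 0.0158). Cd44 (0.71) and the immune receptor gene Lair1 (0.62) rose as well, the first lost without replicate 1, 2 or 4 labelled Mrp4 KO or WT replicate 1 or 4, the second without replicate 1 or 2 labelled Mrp4 KO or WT replicate 1, 2 or 3; on log2(FPKM + 1) the Lair1 difference was 0.36. Of 12 tested genes of collagen degradation, 5 were called higher and 1 lower, with a median of 0.33. Timp1, an inhibitor of metalloproteinases, the cathepsin gene Ctss and the membrane protease gene Fap rose by 1.08, 0.93 and 0.87. The gelatinase gene Mmp9 fell, with 5.50 ± 2.33 FPKM in the libraries labelled Mrp4 KO and 13.3 ± 2.36 FPKM in WT (-1.34 ± 0.25, adjusted p = 0.00931).

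Markers of the cells that can make collagen were measured in the same libraries. In bulk tissue, a change in the share of a cell type and a change in RNA per cell cannot be told apart. The counts below stand beside the 10.2% of all tested genes called higher and 8.05% called lower. Of 12 fibroblast and progenitor markers, 5 were called higher and 1 lower. The markers called higher were Fbn1 (log2 fold change 0.90), Dpt (0.61), Thy1 (0.60), Lum (0.55) and Pdgfrb (0.40), and Dcn, which encodes the abundant proteoglycan decorin, was called lower (-0.61). The other 6 did not pass: Pdgfra (-0.37), Dpp4 (0.02), Ly6a (0.04), Cd34 (0.10), Pi16 (0.12) and Clec3b (0.15). The median log2 fold change of the 12 markers was 0.13. Their summed level was 1428 to 1675 FPKM in the libraries labelled Mrp4 KO and 1598 to 1790 FPKM in WT, and Dcn alone set this overlap: without it the sum was 827 to 921 FPKM in the libraries labelled Mrp4 KO and 602 to 712 FPKM in WT. Of 10 endothelial markers 5 were called higher and 1 lower, and their sum was 593 to 630.5 FPKM in the libraries labelled Mrp4 KO, against 386 to 577 FPKM in WT, with overlap only where Cdh5 was left out. Of 8 mural markers 2 were called higher and 0 lower, with a median log2 fold change of -0.06. Rgs5 (0.82), Acta2 (0.49), Notch3 (0.48) and Cspg4 (0.18) lay above 0. Cnn1 (-0.91), Myh11 (-0.39), Des (-0.31) and Tagln (-0.31) lay below 0. The sum of the 8 was 275 to 347 FPKM in the libraries labelled Mrp4 KO and 193 to 295 FPKM in WT, and without Tagln it was 241 to 294 FPKM in the libraries labelled Mrp4 KO and 143 to 224 FPKM in WT. Without Rgs5 the ratio of the group means was 1.14, against 1.28 with all 8. Of 10 macrophage markers 3 were called higher and 0 lower, at 803 to 1276 FPKM in the libraries labelled Mrp4 KO and 686 to 801 FPKM in WT, ranges that met so closely that leaving out any 1 of 7 markers made them overlap. Of 10 adipocyte markers 1, the leptin gene Lep, was called higher and 2, Plin1 and Cfd, lower. Their sum was 21980 to 26870 FPKM in the libraries labelled Mrp4 KO and 27240 to 30660 FPKM in WT, and Cfd, the gene of adipsin, alone set the direction of the sum: without it the sum was 18280 to 24460 FPKM in the libraries labelled Mrp4 KO and 15720 to 20960 FPKM in WT. Fabp4 made up most of that remaining sum, at means of 11970 FPKM in the libraries labelled Mrp4 KO and 10600 FPKM in WT. The median log2 fold change of the 10 markers was -0.13. Cfd (-1.57), Plin1 (-0.35), Slc2a4 (-0.32), Lipe (-0.26), Adipoq (-0.15), Pnpla2 (-0.11) and Pparg (-0.03) lay below 0. Lep (1.78), Cidec (0.245) and Fabp4 (0.12) lay above 0. Of 8 mesothelial markers 0 were called higher and 1, Wt1, lower; their sums, given above, overlapped through 1 library, and without Msln they were 51.7 to 142 FPKM in the libraries labelled Mrp4 KO and 143 to 234 FPKM in WT. Every marker of these 6 lists was above 0 in all 8 libraries. The part of each of these cell types in the collagen values was not tested.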

How the data were processed

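Polyadenylated RNA was sequenced on the BGISEQ-500 in paired reads (100 bases each), per the labels' protocols. The submitters' processing notes name Bowtie2 and mm9; no version or counting tool is given. For each gene and library the authors' deposited files hold an expected count and an FPKM, per the file headers, and unlisted genes were taken as 0.

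Rounded expected counts went into edgeR 4.0.16, run in R 4.3.3 (filterByExpr by genotype, which left 14257 of 18691 genes; TMM; glmQLFit with robust=TRUE; glmQLFTest; genotype alone). The SE is the log2 fold change divided by the square root of F. Values after ± are SE for log2 fold changes and SD over 4 libraries for FPKM. Limma 3.58.1 and DESeq2 1.42.0 gave alternatives. The script was tested on simulated data. Libraries of one group differed by more than counting error. Reads carried no molecular identifiers, and strand-specific counting is not stated: overlapping or antisense genes can share reads.

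Members, classes, lists and tests were chosen with earlier results of these data known. Values in every library were given for chains called at a mean of at least 1 FPKM in either group, the 2 highest chains of each class and type VI chains; other chains given that way, and the marker genes named, were chosen after their values were seen. In each of 4 pathway lists the 4 genes with the lowest p at 1 FPKM or more were named. All 44 members matched RefSeq (GRCm38.p6) by gene number, used for gene order, and 35 had a promoter window.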

Additional observations from a re-analysis of the deposited data

Results flagged for a closer look

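Of 104 groups of 4 libraries (each named gene and class sum in each group), 5 had a library that stood apart by the gap to its nearest neighbour over the whole range (Dixon's criterion); chance flags about 1 in 20. The summed level of the other collagen chains was 69.2 FPKM in replicate 4 labelled Mrp4 KO, against 53.4 to 55.7 FPKM in the other 3 of that group. Lox was at 29.2 FPKM in WT replicate 2 and at 15.7 to 17.6 FPKM in the other WT libraries. Timp1 and Mmp9 were highest in replicate 1 labelled Mrp4 KO, at 8.42 FPKM (others 6.65 to 6.95) and 8.97 FPKM (others 4.05 to 4.79). Ctss was lowest in WT replicate 1, at 41.2 FPKM (others 54.0 to 56.6).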

How the results depend on the processing

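Under the other scalings, filters and tools, with all 8 libraries and the 0.05 threshold, 13 to 17 chains were called higher and 1 or 2 lower, against 14 and 2. Lower chains numbered 1 without the filter and 1 in each FPKM fit (pseudocounts 1 and 0.1). At an adjusted p under 0.01, 7 chains were higher, 0 lower, and all genes called numbered 551, against 2606. With each library left out in turn, 11 to 18 chains were higher and 0 to 2 lower, and 1172 to 3683 genes were called. Replicate numbers are shared by 3 libraries of each group, whose deviations from the group means did not go together (r = 0.01, -0.07 and -0.13), so they were not taken as pairs; the fit with the replicate number as a block on those 6 libraries called 158 genes, 0 chains higher and 0 lower, against 648, 6 and 0 in the same libraries without it. The median log2 fold change of type VI chains, 0.16 over 6 chains of opposite direction, became 1.03 with the stricter filter and 1.03 over chains at 1 FPKM or more, which leave out Col6a4, and 0.485 and 0.36 in the FPKM fits; with a library left out it ran from 0.084 (without WT replicate 1) to 0.29 (without WT replicate 4). That of basement membrane chains, 0.55, became 0.32 on log2(FPKM + 1), and 0.33 to 0.68 with a library left out, lowest without replicate 2 labelled Mrp4 KO. Over the tested chains and the alternatives, 520 of 588 log2 fold changes kept direction and side of the threshold and 7 reversed: Col23a1 (-0.11 under the block; -0.12 to 0.34 with a library left out) and Col8a2 (0.061 by library size, 0.01 by upper quartile; -0.31 to 0.32 with a library left out). Abcc4 also reversed (0.018 by library size, 0.028 and 0.035 in the FPKM fits, 0.018 under the block). The causes were not tested. In an alternative chosen after seeing the data, each marker was left out of its sum in turn, and the ratio of the group means reversed for the fibroblast sum without Dcn (1.32, against 0.934) and the adipocyte sum without Cfd (1.11, against 0.850). Chains under about 1 FPKM are limited by depth.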

Other observations

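Crisp1, a secreted protein gene of the epididymis, was at 13.5 FPKM in WT replicate 2. It was at 0.60 FPKM or less in the other 7 libraries. WT replicate 2 was the WT library that was highest for 18 of the 31 tested collagen chains. Of 5 genes listed for the epididymis and male tract, 3 had values. Adam28 was at 0.37 FPKM in WT replicate 2 and at 0.28 to 0.40 FPKM across WT. Defb1 was at 0.16 FPKM in WT replicates 1 and 2. The part of epididymal RNA in the collagen values was not tested.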
